A study of Mus musculus with 15 samples.

Results

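The 36 genes described here make and run the lysosome and the autophagy pathway that feeds it. They were chosen by name, with earlier results of these data known, so their shares beside all genes are descriptions that are not independent of the data. All 36 of the symbols were found among the 24060 entries of the deposited count table. All 36 passed a filter on low counts that left 15460 genes to test. RNA had been sequenced from bulk pancreatic islets of FVB/NJ mice aged 9 to 10 weeks, in 5 groups of 3 libraries. The double transgenic group (hIAPP_hCAST) carried human IAPP and human CAST, the hIAPP group human IAPP alone, the rIAPP group rodent IAPP alone, the hCAST group human CAST alone, and the WT group none of these. The series text names an insulin promoter, the insulin II promoter for the single transgenes, so transgene expression was directed to beta cells, while the RNA came from every cell type in the islet preparation. IAPP is islet amyloid polypeptide, a hormone released with insulin, whose human form can aggregate, unlike that of rodents. The CAST product, calpastatin, inhibits the calpain proteases.

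Lysosomes are acidic compartments in which cathepsins and other hydrolases break down proteins, lipids, glycans and glycogen. A proton pump, the V-ATPase, acidifies them, and membrane proteins such as the LAMPs line and protect the lysosomal membrane. Autophagy delivers cytoplasmic cargo in double-membraned vesicles, whose formation is started by the ULK and Beclin complexes and whose coat is made of LC3 and GABARAP proteins. The transcription factors TFEB and TFE3 switch on many of these genes through short E-box-type elements in their promoters. In beta cells autophagy removes damaged organelles and aggregated proteins, and lysosomes also degrade surplus secretory granules.

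Because promoter elements of that kind are what many of these genes are known to share, the elements were looked for in RefSeq promoter windows of 300 bases on GRCm38.p6, from 250 bases before to 50 bases after each annotated start. Windows were found for 31 of the 36 members, and Ctsb, Ctsh, Atp6v1h, Map1lc3a and Becn1 had none in the table. The palindrome TCACGTGA, which reads the same on both strands, occurred in at least 1 window of 5 of 31 member genes (16.1%) and of 304 of 27025 genes with a window (1.12%). Its core CACGTG, which every TCACGTGA contains, occurred in 11 of 31 member genes (35.5%) and in 8.09% of all genes. Among 111 further lysosome and autophagy genes with a window, the shares were 8.11% for TCACGTGA and 19.8% for CACGTG. TCACGTGA occurred in 3 of the 13 members with a window that were called higher in hIAPP than in rIAPP islets, Ctsd, Atp6v1a and Ctsa, and in 2 of the 18 that were not, Atp6v0d1 and Mcoln1. CACGTG occurred in 5 of the 13 and 6 of the 18. The difference between these shares was not tested. By rule the windows of the first 3 are shown, 5′ to 3′ on the gene's own strand, with TCACGTGA and any separate CACGTG in capitals. They lie at chr7:142387778-142388077 on the minus strand (Ctsd), chr16:44139210-44139509 on the minus strand (Atp6v1a) and chr2:164833523-164833822 on the plus strand, the second of 2 windows listed for Ctsa.
Ctsd: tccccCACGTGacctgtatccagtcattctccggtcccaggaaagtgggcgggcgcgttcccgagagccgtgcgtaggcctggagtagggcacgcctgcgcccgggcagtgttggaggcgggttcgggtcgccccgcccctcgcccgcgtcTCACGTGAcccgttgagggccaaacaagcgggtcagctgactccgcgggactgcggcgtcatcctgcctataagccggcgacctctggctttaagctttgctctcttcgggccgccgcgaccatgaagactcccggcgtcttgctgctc
Atp6v1a: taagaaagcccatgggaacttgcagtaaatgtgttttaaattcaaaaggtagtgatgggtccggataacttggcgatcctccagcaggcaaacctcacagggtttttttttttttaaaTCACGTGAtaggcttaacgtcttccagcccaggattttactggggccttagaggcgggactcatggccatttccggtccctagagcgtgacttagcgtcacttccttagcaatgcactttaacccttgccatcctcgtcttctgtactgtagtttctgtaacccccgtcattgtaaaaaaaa
Ctsa: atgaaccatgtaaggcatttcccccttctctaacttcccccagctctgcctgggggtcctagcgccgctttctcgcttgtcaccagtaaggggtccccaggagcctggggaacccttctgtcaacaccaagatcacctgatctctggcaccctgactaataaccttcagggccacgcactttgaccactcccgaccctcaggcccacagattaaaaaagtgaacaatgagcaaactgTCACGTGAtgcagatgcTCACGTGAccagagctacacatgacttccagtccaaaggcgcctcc
Positions are relative to the RefSeq start, with the first transcribed base counted as 1. TCACGTGA began at position -99 in Ctsd and at position -132 in Atp6v1a. The Ctsa window held 2 copies, 1 on each side of the start. A match describes these letters only. The Ctsa gene spans 164832873 to 164841032 on chromosome 2, Ctsd 142375911 to 142388038 on chromosome 7, and Atp6v1a 44085402 to 44139705 on chromosome 16 in GENCODE M21 on GRCm38, and all 3 are protein coding. In each of the 3 the GENCODE gene begins upstream of the RefSeq start of the window shown. Their TCACGTGA copies therefore lie inside the GENCODE gene.

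The libraries held 28287011 to 40191501 counts. The ribosomal RNA-rich entries Rn45s, Lars2 and Mir6236 took 94.3% of them in WT 2, 68.9% in WT 3 and 67.7% in rIAPP 2, against 0.286% to 11.8% in the other libraries. Counts outside those entries were 1667190 in WT 2, 8796210 in WT 3 and 9510502 in rIAPP 2, against 30199765 to 40062153 elsewhere, so 1 CPM stood for 2.28 counts in WT 2. Levels below are in that unit, CPM, which divides a count by the library size after TMM scaling, and the scaled size was 1.35 to 1.6 times the counts outside the ribosomal RNA-rich entries. The islet identity of the samples was visible in 12 beta-cell markers such as Ins1, Ins2 and Pdx1, none at 0, which summed to 69800 to 84900 CPM in hIAPP_hCAST, 74200 to 84600 in hIAPP, 39200 to 51000 in rIAPP, 93500 to 104000 in hCAST and 116000 to 125000 in WT. Mouse Iapp, on which reads of the rodent transgene may also be counted (which was not tested), was at 34800, 39100 and 37500 CPM in rIAPP, against 23800, 43400 and 23500 CPM in WT, and WT 2 was the highest of these 6 libraries. No source used here says that the libraries of a group came from separate mice, so p-values measure the spread between these libraries. In bulk RNA, more cells of a type and more RNA per cell cannot be told apart. The title numbers of hIAPP and hIAPP_hCAST lie in a range apart from those of WT and hCAST, and those of rIAPP in another range, so whatever those ranges stand for cannot be told apart from the IAPP transgenes.

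On a scale that compares genes, FPKM rescaled to leave out the ribosomal RNA-rich entries, the members spanned a wide range. Psap, the precursor of the saposins that help degrade sphingolipids, was the most abundant member in WT at 712 ± 159 (SD, n = 3), and Ctsh, an aminopeptidase of the cathepsin family, the least at 2.99 ± 0.571. Ctsd, the main aspartic protease of lysosomes, had a level of 622 ± 42.6 in hIAPP and 310 ± 21.5 in WT on the same scale. The transcription factor genes Tfeb and Tfe3 were low, at 4.41 ± 1.08 and 12 ± 0.981 in WT. All further levels are CPM, which compare a gene between groups and not genes with each other.

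The comparison of hIAPP with WT islets asks what the aggregating form of IAPP goes with. In it, 10 of the 36 members were called higher and 2 lower by edgeR's quasi-likelihood test at a Benjamini-Hochberg adjusted p below 0.05 over all tested genes, against 6.27% of all genes called higher and 5.59% called lower. The median log2 fold change of the members was 0.08 and that of all genes 0.02. The members' median was 0.21 without WT 1, 0.13 without hIAPP 3, 0.02 without the 3 ribosomal RNA-rich libraries and 0.23 on log2(rescaled FPKM + 1), where that of all genes was 0.11, so its size depended on single libraries and on the scale. The genes called higher were 6 of the 7 cathepsins, 3 of the 7 other hydrolases and cofactors, and the autophagy receptor Sqstm1, whose product p62 carries ubiquitin-tagged cargo. None of the 5 membrane proteins, 4 proton pump genes or 2 transcription factors was called.

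Ctsh had 7.99, 9.05 and 6.16 CPM in hIAPP islets, against 2.06, 2.19 and 2.54 CPM in WT islets, a 3.45-fold difference (log2 fold change 1.79 ± 0.227 SE, edgeR adjusted p = 0.00021). Every hIAPP library lay above every WT library, though WT 2 gave only 5 Ctsh counts. Ctsd had 490, 630 and 481 CPM in hIAPP, against 308, 273 and 273 CPM in WT (0.91 ± 0.114, edgeR adjusted p = 0.00021). Ctsb, an abundant cysteine protease that acts as endopeptidase and carboxydipeptidase, had 289, 334 and 257 CPM in hIAPP, against 195, 194 and 189 CPM in WT (0.61 ± 0.0955, edgeR adjusted p = 0.00103). In these genes hIAPP 2 was the highest library, and the groups did not overlap. Every hIAPP library lay above every WT library in 17.9% of all genes. Ctsz, a cysteine carboxypeptidase, had 67.5, 79.6 and 64.9 CPM in hIAPP, against 50.3, 42.5 and 47.8 CPM in WT (0.57 ± 0.11, edgeR adjusted p = 0.00413). Ctsa, a serine carboxypeptidase that also stabilises beta-galactosidase and neuraminidase, had 146, 154 and 142 CPM in hIAPP, against 119, 109 and 101 CPM in WT (0.42 ± 0.0758, edgeR adjusted p = 0.00277). Ctsc, the dipeptidase that activates granule proteases of immune cells, rose by 1.08 ± 0.204 on the log2 scale (edgeR adjusted p = 0.00387), with 15 counts in WT 2. Ctsl, an endopeptidase, was the cathepsin that did not pass, at 187, 184 and 178 CPM in hIAPP, against 192, 204 and 192 CPM in WT.

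**Figure D1:**
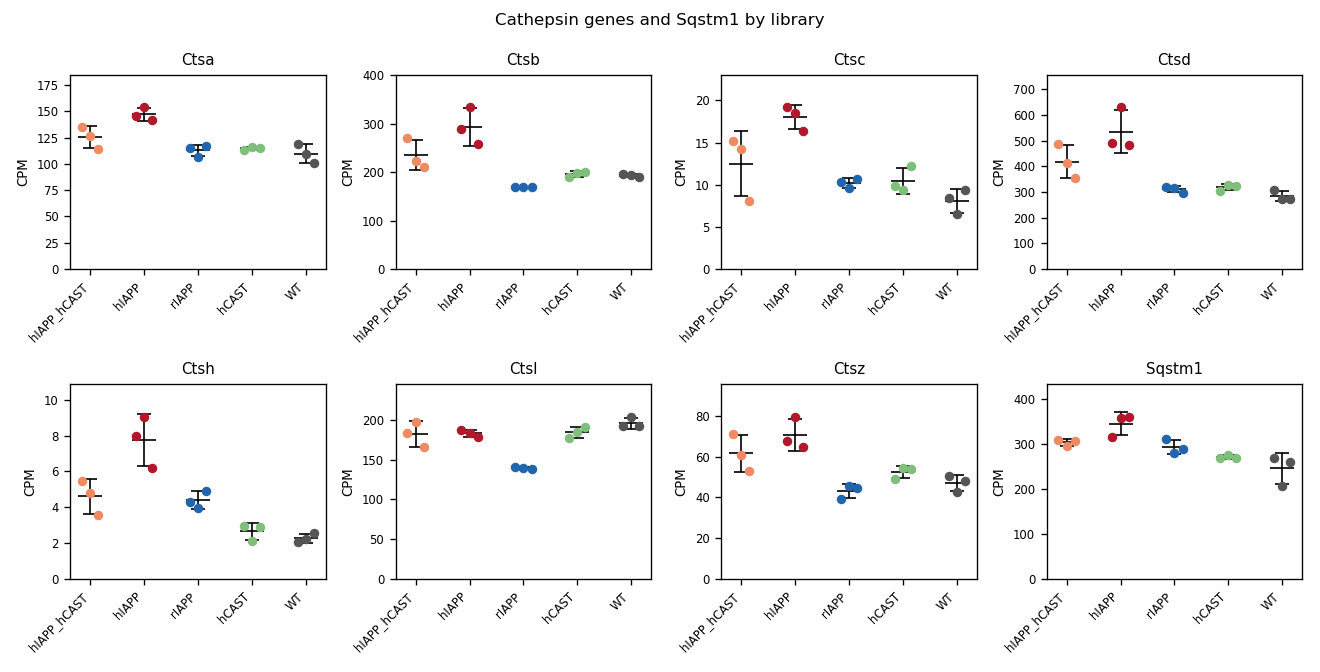
Levels of the 7 cathepsin genes and Sqstm1 in CPM (y axis, from 0) in each of the 15 libraries, by group; dots are libraries, the bar is the mean and the whiskers 1 SD (n = 3). In Ctsd the hIAPP libraries reach 481 to 630 CPM and the WT libraries 273 to 308 CPM, while Ctsl is lowest in the rIAPP libraries at 138 to 141 CPM.

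Sqstm1 had 316, 359 and 361 CPM in hIAPP, against 270, 207 and 261 CPM in WT (0.48 ± 0.0895, edgeR adjusted p = 0.00329). Among the hydrolases, Gaa, the acid alpha-glucosidase that degrades glycogen, rose by 0.38 ± 0.0744, Glb1, beta-galactosidase, by 0.35 ± 0.0946 and Gusb, beta-glucuronidase, by 0.29 ± 0.0749 on the log2 scale (edgeR adjusted p = 0.00449, 0.0257 and 0.0191). Gusb had 50.5, 53.2 and 49.8 CPM in hIAPP, against 45.2, 35.9 and 41 CPM in WT, and WT 2 was the lowest library. Optn, another autophagy receptor, fell by 0.43 on the log2 scale (SE 0.115, edgeR adjusted p = 0.025). Uvrag, a partner of Beclin in vesicle maturation, had 31.5, 30.7 and 33.2 CPM in hIAPP, against 38.8, 32.8 and 40.1 CPM in WT, and fell by 0.26 (SE 0.0756, edgeR adjusted p = 0.0368), with WT 2 inside the range of hIAPP. The calls of Glb1, Gusb, Optn and Uvrag depended on single libraries. Adjusted p was 0.0785, 0.072 and 0.0681 for Glb1 without hIAPP 2, hIAPP 3 or WT 3, and 0.074 and 0.0721 for Gusb without hIAPP 2 or WT 3. For Optn it was 0.0801, 0.0986 and 0.134 without hIAPP 1, hIAPP 2 or WT 3, and for Uvrag 0.0538 to 0.159 without any library but WT 2.

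Without the 3 libraries rich in ribosomal RNA, WT kept 1 library, assumed to vary like the other groups, and 2 of the 12 members stayed called, Ctsd at 0.78 (edgeR adjusted p = 0.0474) and Ctsh at 1.89 (edgeR adjusted p = 0.0165), while the other 10 did not pass. Their log2 fold changes were then 0.58 for Ctsb, 1.09 for Ctsc, 0.48 for Ctsz and 0.30 for Ctsa. They were 0.34 for Sqstm1, 0.26 for Gaa, 0.19 for Glb1 and 0.17 for Gusb, all smaller than with all libraries, and -0.37 for Optn and -0.29 for Uvrag. That fit repeated the filter on low counts and the adjustment of p on the libraries kept. Far fewer genes in all were called in it than the 1833 with all libraries, so the loss of calls was not particular to the members. With hCAST in place of WT, 9 members were called higher and 0 lower, and 1112 of all genes were called.

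Markers of macrophages, cells rich in cathepsins, differed between the same groups. The 20 macrophage markers, none at 0 in all libraries, summed to 515, 586 and 406 CPM in hIAPP, against 148, 105 and 153 CPM in WT, and 17 of 20 were called higher (12 of 20 without the 3 ribosomal RNA-rich libraries). Lyz2, lysozyme of myeloid cells, had 166, 176 and 129 CPM in hIAPP, against 9.4, 8.32 and 10.9 CPM in WT. Csf1r, the receptor that macrophages need to survive, had 24.9, 30.5 and 18.2 CPM in hIAPP, against 9.66, 9.19 and 9.56 CPM in WT, and C1qa, a complement subunit, had 76.8, 90.7 and 67.5 CPM in hIAPP, against 60.1, 32.4 and 50.7 CPM in WT. The library with the highest macrophage sum, hIAPP 2, was also the highest in Ctsa, Ctsb, Ctsd, Ctsh and Ctsz. The hIAPP library with the lowest sum, hIAPP 3, was the lowest of that group in each of the 7 cathepsins. This order was not particular to macrophages. Among the hIAPP libraries, acinar, alpha-cell and duct sums were also highest in hIAPP 2, and acinar, beta-cell, duct and stromal sums lowest in hIAPP 3. The beta-cell, stromal, endothelial and lymphocyte sums were highest in hIAPP 1. The 9 stellate and stromal markers summed to 723 to 904 CPM in hIAPP and 214 to 366 CPM in WT, with 6 called higher (1 without the 3 ribosomal RNA-rich libraries), and 9 of the 12 beta-cell markers were called lower (6 without them). All 17 acinar markers had log2 fold changes above 0, with a median of 1.07 and sums of 44200 to 97500 CPM in hIAPP and 11400 to 52400 CPM in WT, though 0 of 17 were called. Of the 8 endothelial markers 0 were called higher and 1 lower (0 without the 3 ribosomal RNA-rich libraries), and 1 of 2 lymphocyte markers tested and 1 of 7 duct markers were called higher (1 and 0 without them). The 7 alpha-cell markers had a median of 0.28, with 0 called. The part of these cell types in the members' differences was not tested.

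**Figure D2:**
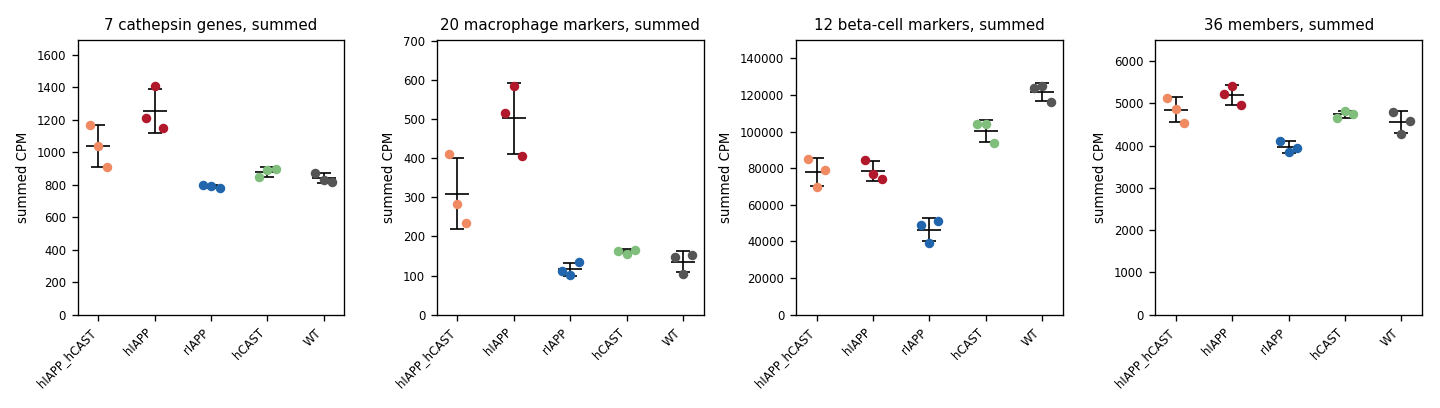
Summed CPM (y axes, from 0, on separate scales) of the 7 cathepsins, of 20 macrophage markers, of 12 beta-cell markers and of all 36 members in each library, by group; dots are libraries, the bar is the mean and the whiskers 1 SD (n = 3). The cathepsin sum is 1150 to 1410 CPM in hIAPP and 816 to 875 CPM in WT, the macrophage sum 406 to 586 CPM in hIAPP and 105 to 153 CPM in WT, and the beta-cell sum is lowest in rIAPP.

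The rIAPP group asks the same of an IAPP transgene whose product does not aggregate. Here 1 of the 36 members was called higher and 9 lower by edgeR, against 10.7% of all genes called higher and 12.6% called lower. The median log2 fold change was -0.16 among the members and 0.01 among all genes. The members' median was -0.09 without WT 1 and -0.04 on log2(rescaled FPKM + 1), where that of all genes was 0.10. The genes called lower were spread over the roles: Ctsl, the lipid hydrolysis cofactor Psap, the membrane proteins Lamp1 and Lamp2, the proton pump genes Atp6v1a and Atp6ap1, the receptor Optn, and the autophagy initiation genes Ulk1 and Uvrag.

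Atp6v1a, the catalytic subunit of the proton pump, had 80.5, 76 and 75.9 CPM in rIAPP, against 112, 107 and 111 CPM in WT (log2 fold change -0.51 ± 0.0594, edgeR adjusted p = 0.0000122). Lamp1, a major glycoprotein of the lysosomal membrane, had 339, 340 and 328 CPM in rIAPP, against 450, 481 and 453 CPM in WT (-0.46 ± 0.0686, edgeR adjusted p = 0.000135). Lamp2, its relative that also serves chaperone-mediated autophagy, had 153, 148 and 152 CPM in rIAPP, against 237 ± 43.6 CPM (SD, n = 3) in WT (-0.64 ± 0.0973, edgeR adjusted p = 0.000163). The groups did not overlap in any of these genes, and WT 2 was the highest library in Lamp1 and Lamp2. Every rIAPP library lay below every WT library in 19% of all genes. Ctsl had 141, 139 and 138 CPM in rIAPP, against 192, 204 and 192 CPM in WT (-0.49 ± 0.0691, edgeR adjusted p = 0.0000767). These 4 calls held without any single library and without the 3 ribosomal RNA-rich libraries, where the log2 fold changes were -0.52, -0.44, -0.52 and -0.47 in the order given.

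**Figure D3:**
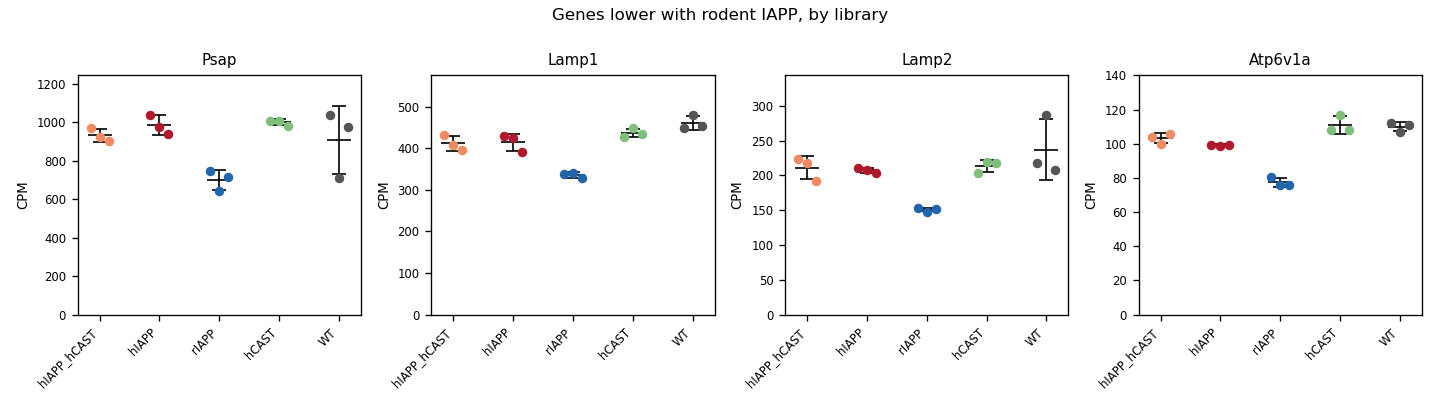
Levels of Psap, Lamp1, Lamp2 and Atp6v1a in CPM (y axis, from 0) in each library, by group; dots are libraries, the bar is the mean and the whiskers 1 SD (n = 3). The rIAPP libraries lie below the other groups in Lamp1, Lamp2 and Atp6v1a, and WT 2 at 709 CPM lies within the rIAPP range of Psap.

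Ctsh was the member called higher in rIAPP, at 4.3, 3.92 and 4.91 CPM, against 2.06, 2.19 and 2.54 CPM in WT (0.98 ± 0.233, edgeR adjusted p = 0.0055, and 0.0699 without WT 1). The other cathepsins did not pass. Tfe3 had 17.9, 18.1 and 17.1 CPM in rIAPP, against 20.9, 23.2 and 17.4 CPM in WT, and neither it nor Tfeb passed. Psap and Atp6ap1, an accessory subunit of the pump, fell by 0.38 and 0.26 on the log2 scale (SE 0.114 and 0.0747, edgeR adjusted p = 0.0245 and 0.0175). Without rIAPP 2, rIAPP 3, WT 1 or WT 3, adjusted p was 0.0972, 0.0525, 0.141 and 0.0927 for Psap and 0.0656, 0.0638, 0.106 and 0.0777 for Atp6ap1. Optn, Uvrag and Ulk1, the kinase that starts autophagy, fell by 0.52, 0.27 and 0.41 (SE 0.117, 0.0764 and 0.138, edgeR adjusted p = 0.004, 0.0173 and 0.0383). None of these 3 was called without the 3 ribosomal RNA-rich libraries (adjusted p = 0.107, 0.0739 and 0.179). Uvrag was at 32.2, 30 and 32.3 CPM in rIAPP, and its adjusted p was 0.0635, 0.0859 and 0.093 without rIAPP 2, WT 1 or WT 3. For Ulk1 adjusted p was 0.0604 to 0.115 when any library other than WT 3 was left out. Sqstm1 had 294 ± 16.1 CPM in rIAPP and 246 ± 34.5 CPM in WT (SD, n = 3 each), and the difference did not pass (edgeR adjusted p = 0.0565).

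Beside these, the 20 macrophage markers summed to 111, 102 and 134 CPM in rIAPP, against 148, 105 and 153 CPM in WT, with 0 called higher and 2 lower. All 12 beta-cell markers were called lower in rIAPP, with a median log2 fold change of -1.54, while 7 of the 9 stromal and 6 of the 8 endothelial markers were called higher (2 and 3 without the 3 ribosomal RNA-rich libraries). All 17 acinar markers had log2 fold changes above 0, with a median of 1.37 and 0 called, and their sums did not overlap, at 69700 to 97500 CPM in rIAPP and 11400 to 52400 CPM in WT. Of the 7 alpha-cell markers 2 were called higher (0 without those libraries), with sums of 16700 to 21000 CPM in rIAPP and 14300 to 16400 CPM in WT. Of the 7 duct markers 1 was called higher and 1 lower (0 and 1 without those libraries). The part of these differences in the lower member levels was not tested.

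Human and rodent IAPP were then set against each other, with the same libraries as above. In hIAPP against rIAPP islets 15 of the 36 members were called higher and 0 lower, against 7.71% of all genes called higher and 5.28% called lower. The log2 fold change was above 0 for 35 of the 36 members, with a median of 0.26, against 0.01 for all genes. By role, all 7 cathepsins were called higher, 5 of the 7 hydrolases and cofactors (Hexa, Gusb, Grn, Psap and Npc2), 2 of the 5 membrane proteins (Lamp1 and Lamp2) and 1 of the 4 proton pump genes (Atp6v1a). Among the 2 transcription factors, 5 cargo and coat genes and 6 initiation and conjugation genes, 0 were called, and Sqstm1 had a log2 fold change of 0.23 (edgeR adjusted p = 0.1).

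Ctsb had 289, 334 and 257 CPM in hIAPP, against 169, 170 and 169 CPM in rIAPP, a 1.73-fold difference (0.79 ± 0.0945, edgeR adjusted p = 0.0000236). Ctsd had 490, 630 and 481 CPM in hIAPP, against 321, 315 and 297 CPM in rIAPP (0.78 ± 0.113, edgeR adjusted p = 0.000156). Ctsz had 67.5, 79.6 and 64.9 CPM in hIAPP, against 39.2, 45.4 and 44.7 CPM in rIAPP (0.72 ± 0.106, edgeR adjusted p = 0.000174). In each of these proteases every rIAPP library lay below every hIAPP library, as in 19.8% of all genes. Ctsa had 146, 154 and 142 CPM in hIAPP, against 115, 107 and 117 CPM in rIAPP (0.38 ± 0.0737, edgeR adjusted p = 0.00189). Ctsc and Ctsh rose by 0.81 ± 0.183 and 0.80 ± 0.187 (edgeR adjusted p = 0.00704 and 0.00759).

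Some of the 15 genes, among them Atp6v1a, Lamp1, Lamp2, Ctsl and Psap, were called lower in rIAPP than in WT and were not called between hIAPP and WT. Atp6v1a had 99.4, 98.8 and 99.5 CPM in hIAPP, against 80.5, 76 and 75.9 CPM in rIAPP (0.36 ± 0.0576, edgeR adjusted p = 0.000403), and its log2 fold change between hIAPP and WT was -0.15 (edgeR adjusted p = 0.109). Lamp1 had 429, 424 and 391 CPM in hIAPP, against 339, 340 and 328 CPM in rIAPP (0.31 ± 0.0681, edgeR adjusted p = 0.0056). Lamp2 had 211, 207 and 203 CPM in hIAPP, against 153, 148 and 152 CPM in rIAPP (0.45 ± 0.0957, edgeR adjusted p = 0.00359). Ctsl and Psap rose by 0.39 ± 0.0679 and 0.49 ± 0.114 against rIAPP (edgeR adjusted p = 0.000762 and 0.00788). Hexa, a subunit of beta-hexosaminidase, Npc2, a cholesterol carrier of the lysosome lumen, and Grn, the progranulin precursor, rose by 0.41 ± 0.0886, 0.38 ± 0.0786 and 0.52 ± 0.134 (edgeR adjusted p = 0.00453, 0.00331 and 0.0166). Gusb had 50.5, 53.2 and 49.8 CPM in hIAPP, against 41.9, 37.4 and 39 CPM in rIAPP (0.37 ± 0.0714, edgeR adjusted p = 0.00176).

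**Figure D4:**
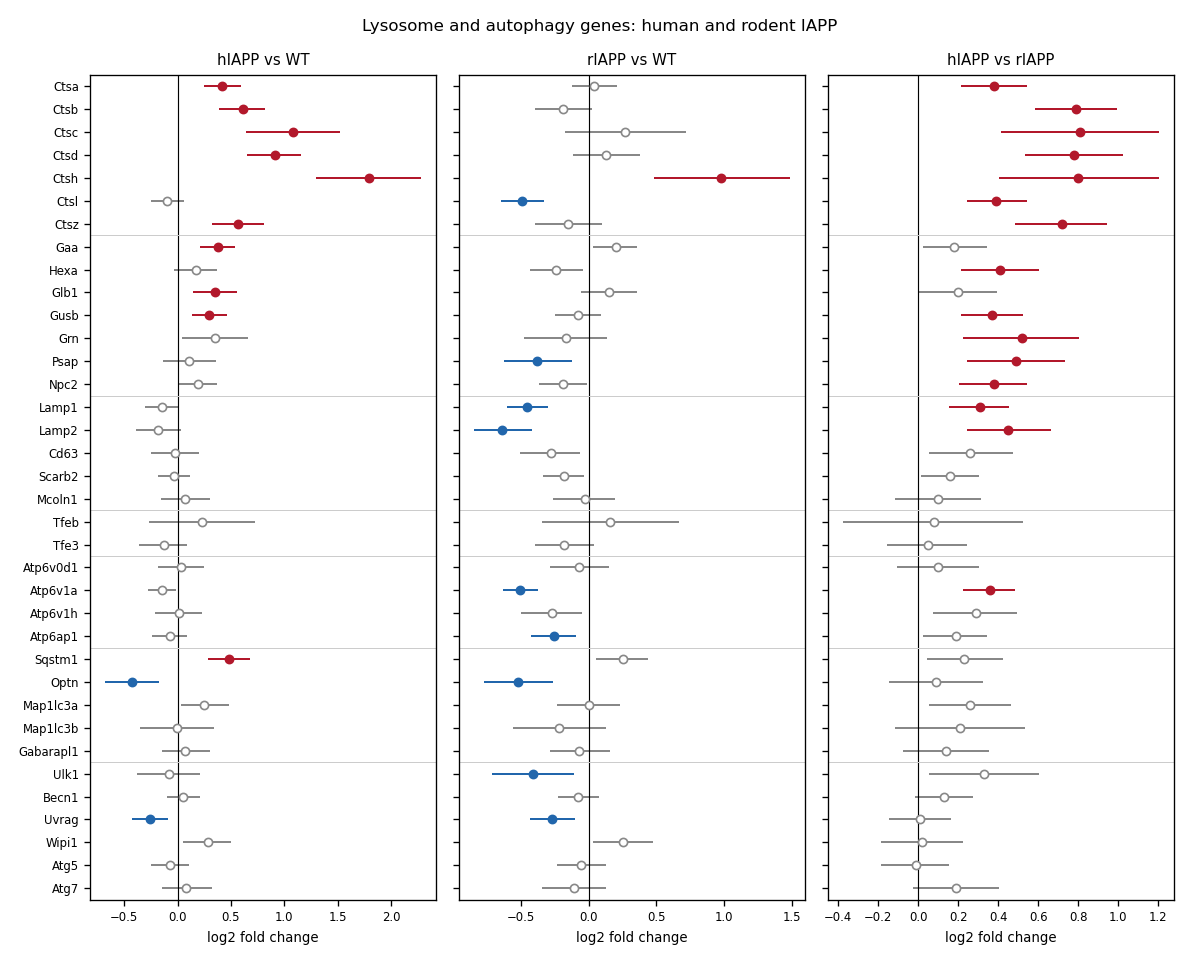
Log2 fold changes of all 36 members (x axes, on separate scales) with 95% intervals in hIAPP vs WT, rIAPP vs WT and hIAPP vs rIAPP, ordered by role with grey lines between roles; filled red points were called higher, filled blue points lower, open grey points did not pass. The 7 cathepsins are all filled in hIAPP vs rIAPP, and 9 members are blue in rIAPP vs WT.

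Leaving out any single library changed 1 of the 15 calls, that of Grn, with adjusted p = 0.0574, 0.081 and 0.0808 without hIAPP 1, hIAPP 2 or rIAPP 2. On log2(rescaled FPKM + 1) and on log2(rescaled FPKM + 0.1), fitted by a linear model in place of edgeR, 10 of the 15 were called. Genes called in all were 1163 and 1000 there, against 2009 in the main fit. The members' median log2 fold change was 0.27 on both, against 0.26 in the main fit. Scale and test were not told apart. Gusb, Psap, Npc2, Lamp1 and Atp6v1a did not pass on either. Without the 3 ribosomal RNA-rich libraries 12 of the 15 remained called, and Ctsc, Ctsh and Grn did not (edgeR adjusted p = 0.0655, 0.0582 and 0.0879). Fewer genes in all were also called in that fit than the 2009 with all libraries. Of the 20 macrophage markers 17 were called higher, and 15 without those libraries. Lyz2 had 166, 176 and 129 CPM in hIAPP, against 11.2, 9.77 and 13.7 CPM in rIAPP. In the same comparison 11 of the 12 beta-cell markers were called higher (9 without those libraries) and 3 of the 8 endothelial markers lower. Stromal markers were mixed: 3 of 9 were called higher (1 without those libraries), the other 6 had log2 fold changes at or below 0, the median was -0.11, and the sums were 723 to 904 CPM in hIAPP and 805 to 920 CPM in rIAPP. Both lymphocyte markers tested were called higher (1 without those libraries). Of the 17 acinar markers 1 had a log2 fold change above 0, with a median of -0.33 and 0 called. Their part in the members' differences was not tested.

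Calpastatin was examined in 3 comparisons and an interaction. In hCAST against WT islets 0 of the 36 members were called in either direction, against 0.0194% of all genes called higher and 0% called lower. At an unadjusted p below 0.05, edgeR gave 3 members, 8.33% of the 36, and 7.33% of all genes. DESeq2 and voom with sample weights called 0 members, among 37 and 3 genes in all. Ctsd had 304, 326 and 322 CPM in hCAST, against 308, 273 and 273 CPM in WT, and the 95% interval of the log2 fold change ran from -0.09 to 0.39. Lamp1 had 428, 448 and 434 CPM in hCAST, against 450, 481 and 453 CPM in WT, with an interval of -0.22 to 0.07. Tfe3, in which the groups overlap, had 18.1, 18 and 15.8 CPM in hCAST, against 20.9, 23.2 and 17.4 CPM in WT. A p that misses the threshold does not show that the levels were alike.

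On the human IAPP background, hIAPP_hCAST against hIAPP islets, 0 of the 36 members were called by edgeR, against 0.0906% of all genes called higher and 0.375% called lower. The 7 cathepsins had log2 fold changes at or below 0, with a median of -0.32, against 0 for all genes. At an unadjusted p below 0.05 edgeR gave 6 members, 16.7% of the 36, and 11.3% of all genes, and these were Ctsa, Ctsb, Ctsc, Ctsd, Ctsh and Wipi1. DESeq2 called 1 member, Ctsh, among 285 genes in all, and voom with sample weights called 0 members among 114 genes.

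Ctsh had 5.45, 4.78 and 3.54 CPM in hIAPP_hCAST, against 7.99, 9.05 and 6.16 CPM in hIAPP, and every hIAPP_hCAST library lay below every hIAPP library, as in 8.69% of all genes. Its log2 fold change was -0.75 with a 95% interval of -1.14 to -0.37 and an edgeR adjusted p of 0.0717, and its DESeq2 adjusted p was 0.0182. Ctsb had 270, 223 and 211 CPM in hIAPP_hCAST, against 289, 334 and 257 CPM in hIAPP, with a log2 fold change of -0.32 and an interval of -0.52 to -0.12. Ctsd had 486, 414 and 355 CPM in hIAPP_hCAST, against 490, 630 and 481 CPM in hIAPP, with -0.35 and an interval of -0.59 to -0.11. In Ctsb and Ctsd the groups overlapped through hIAPP_hCAST 1, and without that library Ctsb and Ctsh were called, at -0.44 and -0.90 (edgeR adjusted p = 0.036 and 0.0489), among 129 genes in all, against 72 with that library. Ctsl had 183, 198 and 166 CPM in hIAPP_hCAST, against 187, 184 and 178 CPM in hIAPP. Lamp1 had 432, 409 and 395 CPM in hIAPP_hCAST, against 429, 424 and 391 CPM in hIAPP, and Sqstm1 had 310, 295 and 307 CPM in hIAPP_hCAST, against 316, 359 and 361 CPM in hIAPP.

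The macrophage markers summed to 411, 284 and 234 CPM in hIAPP_hCAST, against 515, 586 and 406 CPM in hIAPP, and 1 of 20, Ms4a7, was called lower (0 without the 3 ribosomal RNA-rich libraries). Lyz2 had 99, 55.7 and 42.2 CPM in hIAPP_hCAST, against 166, 176 and 129 CPM in hIAPP. Within hIAPP_hCAST, library 1 was the highest and library 3 the lowest in the macrophage sum and in each cathepsin except Ctsl, whose highest library was hIAPP_hCAST 2. The endothelial sum had the same order, at 581, 525 and 462 CPM. Stromal and acinar sums were also lowest in library 3, and the beta-cell, alpha-cell, duct and lymphocyte sums were not. Stromal markers summed to 180 to 484 CPM in hIAPP_hCAST and 723 to 904 CPM in hIAPP, with 2 of 9 called lower (0 without those libraries), and 0 of the 12 beta-cell markers were called. Endothelial markers summed to 462 to 581 CPM in hIAPP_hCAST and 629 to 665 CPM in hIAPP, with 1 of 8 called lower with and without those libraries. Lymphocyte markers summed to 24.9 to 26.1 CPM in hIAPP_hCAST and 12.8 to 16.1 CPM in hIAPP, with 1 of 2 tested called higher (0 without those libraries). The 17 acinar markers had a median log2 fold change of -0.28, with 0 called. The part of these cell types in the cathepsin values was not tested.

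Among the other named members, Ctsa had 135, 127 and 114 CPM in hIAPP_hCAST, against 146, 154 and 142 CPM in hIAPP, with an interval of -0.39 to -0.08. Ctsz had 71.1, 60.8 and 52.8 CPM in hIAPP_hCAST, against 67.5, 79.6 and 64.9 CPM in hIAPP, with an interval of -0.42 to 0.02. The groups did not overlap in Ctsa, as in 8.69% of all genes in that direction, and overlapped in Ctsz. Lamp2 had 223, 217 and 192 CPM in hIAPP_hCAST, against 211, 207 and 203 CPM in hIAPP, with an interval of -0.18 to 0.23. Atp6v1a had 104, 100 and 106 CPM in hIAPP_hCAST, against 99.4, 98.8 and 99.5 CPM in hIAPP, with an interval of -0.06 to 0.18. Gusb had 49.1, 49.1 and 48.6 CPM in hIAPP_hCAST, against 50.5, 53.2 and 49.8 CPM in hIAPP. The intervals of Lamp2 and Atp6v1a included 0 and were narrower than that of Ctsh. Tfe3 had 15.8, 18 and 18.5 CPM in hIAPP_hCAST, against 17.9, 18.5 and 18.3 CPM in hIAPP, and Uvrag had 32.4, 31.9 and 34.3 CPM in hIAPP_hCAST, against 31.5, 30.7 and 33.2 CPM in hIAPP. Both genes overlapped between the groups.

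Human IAPP on the calpastatin background, hIAPP_hCAST against hCAST islets, also gave 0 called members by edgeR, against 0.517% of all genes called higher and 0.233% called lower. At an unadjusted p below 0.05 edgeR gave 4 members, Ctsb, Ctsd, Ctsh and Ctsz, 11.1% of the 36, and 9.48% of all genes, and DESeq2 and voom with sample weights each called Ctsd and Ctsh, among 269 and 313 genes in all. Ctsh had 5.45, 4.78 and 3.54 CPM in hIAPP_hCAST, against 2.96, 2.09 and 2.89 CPM in hCAST, with a log2 fold change of 0.79, a 95% interval of 0.39 to 1.19 and an edgeR adjusted p of 0.0643. Ctsd had 486, 414 and 355 CPM in hIAPP_hCAST, against 304, 326 and 322 CPM in hCAST, with 0.40, an interval of 0.16 to 0.64 and an edgeR adjusted p of 0.135. Both genes had no overlap between the groups, as in 6.64% of all genes in that direction. Ctsb had 270, 223 and 211 CPM in hIAPP_hCAST, against 189, 199 and 201 CPM in hCAST, with an interval of 0.06 to 0.46. Ctsz had 71.1, 60.8 and 52.8 CPM in hIAPP_hCAST, against 49.1, 54.4 and 53.7 CPM in hCAST, and overlapped. Ctsl had 183, 198 and 166 CPM in hIAPP_hCAST, against 177, 185 and 191 CPM in hCAST, with an interval of -0.16 to 0.13. Without hIAPP_hCAST 3 the calls became Ctsc, Ctsd and Ctsh, at 0.49, 0.50 and 0.95 (edgeR adjusted p = 0.0349, 0.0178 and 0.00738), among 356 genes in all, against 116 with that library. Of the macrophage markers 9 of 20 were called higher in this comparison, and 2 of 20 without the 3 ribosomal RNA-rich libraries. Both lymphocyte markers tested were called higher and 1 of the 12 beta-cell markers lower, with the same counts without those libraries.

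**Figure D5:**
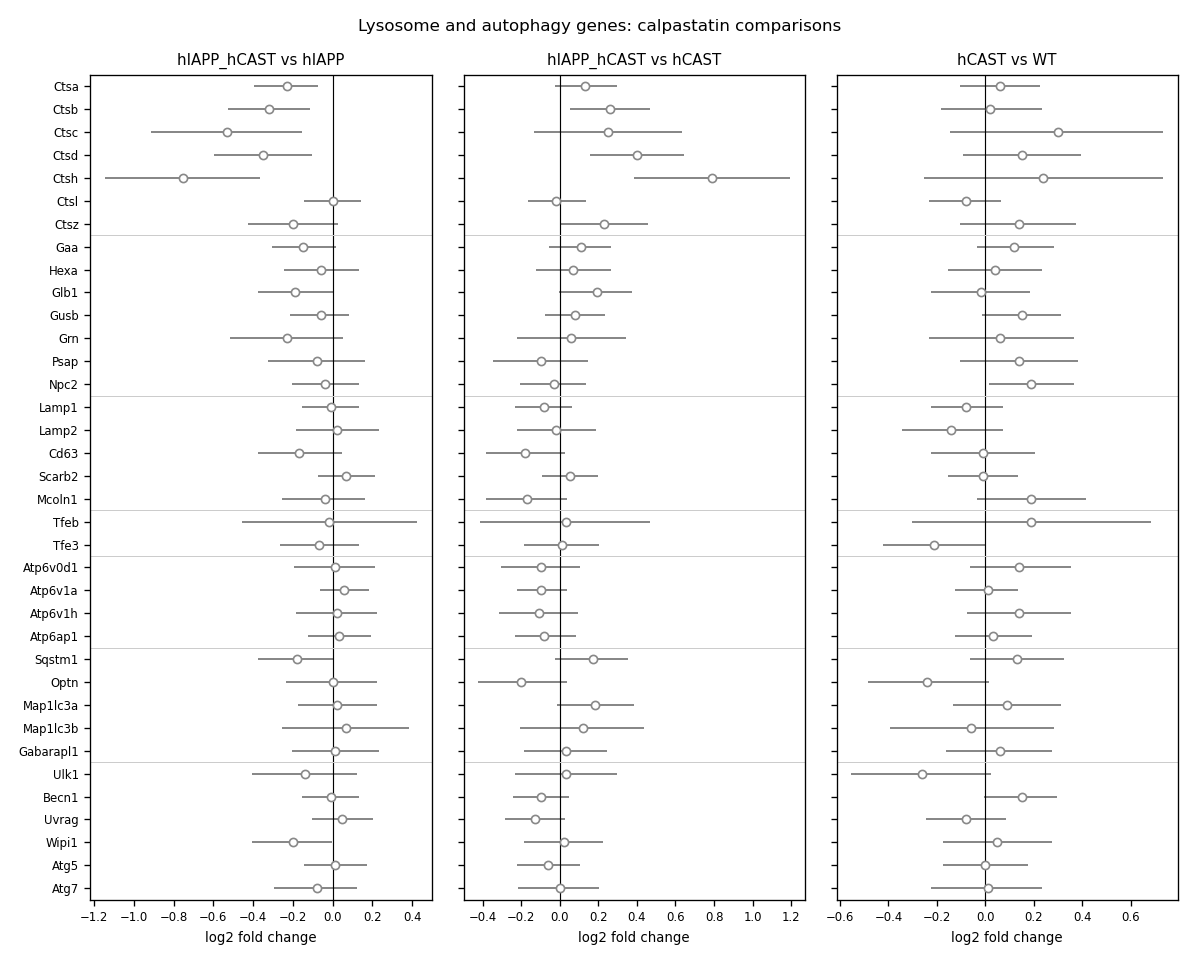
Log2 fold changes of all 36 members (x axes, on separate scales) with 95% intervals in hIAPP_hCAST vs hIAPP, hIAPP_hCAST vs hCAST and hCAST vs WT, ordered by role with grey lines between roles; open grey points did not pass, and no member passed in these comparisons. Ctsh lies farthest from 0, at -0.75 and 0.79 in the first and second panels.

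The interaction sets the hIAPP_hCAST vs hCAST difference against the hIAPP vs WT difference (first minus second), and so asks whether the response to human IAPP differs with calpastatin. By edgeR 0 of the 36 members passed, against 0% of all genes called in either direction, with a smallest edgeR adjusted p of 0.364 among the members, for Ctsh. DESeq2 and voom with sample weights called 0 members, among 50 and 2 genes in all. At an unadjusted p below 0.05 edgeR gave 8 members, 22.2% of the 36, and 8.71% of all genes. These 8 were Ctsa, Ctsb, Ctsc, Ctsd, Ctsh, Ctsz, Gaa and Sqstm1, all with a negative estimate. The estimate was -1 ± 0.294 for Ctsh and -0.51 ± 0.16 for Ctsd on the log2 scale, with unadjusted 95% intervals of -1.62 to -0.37 and -0.84 to -0.17. The members' median estimate was -0.14, against -0.01 for all genes. It was -0.24 without WT 1, -0.08 without WT 2, -0.07 without hIAPP_hCAST 3 and -0.04 without the 3 ribosomal RNA-rich libraries. With 0 members passing after adjustment, a difference in response was not shown. Intervals as wide as that of Ctsh do not show that the responses were alike.

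Outside the 36 members, 145 further lysosome and autophagy genes were in the table and 143 were tested. Their list, too, was chosen with earlier results of these data known. In hIAPP against WT, 18 of these were called higher and 9 lower, beside 6.27% and 5.59% of all genes, so the share called lower was near that of all genes. Without the 3 ribosomal RNA-rich libraries fewer of them were called, and fewer of all genes too. Their median log2 fold change was -0.04. Of 11 further proteases 5 were called higher. Lgmn, the asparaginyl endopeptidase legumain, had 70.6, 78.4 and 73.7 CPM in hIAPP, against 48.2, 50.8 and 43.7 CPM in WT (0.66 ± 0.0748, edgeR adjusted p = 0.000101). Ctss, a cathepsin of antigen-presenting cells, had 69, 85.1 and 57.3 CPM in hIAPP, against 22.6, 21.5 and 24.3 CPM in WT (1.61 ± 0.191, edgeR adjusted p = 0.000267), and Ctse, an aspartic protease, rose by 2.54 ± 0.39 (edgeR adjusted p = 0.000875), with 20 counts over the WT group. Of 27 further hydrolases 7 were called higher and 3 lower, with Acp5, an acid phosphatase of osteoclasts and macrophages, at 2.61 ± 0.282 and Lipa, the lysosomal acid lipase, at 0.70 ± 0.119 (edgeR adjusted p = 0.0000523 and 0.00185). Of 19 further membrane proteins tested 3 were called higher, with Gpnmb and Cd68, glycoproteins abundant in macrophages, at 4.65 ± 0.55 and 2.29 ± 0.33 (edgeR adjusted p = 0.000309 and 0.00072), and these had 30 and 125 counts over the WT group. Of 16 further proton pump genes 2 were called higher and 1 lower. Tcirg1, the pump subunit of osteoclasts and immune cells, had 10.2, 10.5 and 10.2 CPM in hIAPP, against 5.38, 5.25 and 6.09 CPM in WT, and Atp6v0d2 summed to 359 counts in hIAPP and 3 counts in WT. The 50 further autophagy genes gave 1 higher and 4 lower, and 0 in either direction without the 3 ribosomal RNA-rich libraries.

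In rIAPP against WT the same 143 genes gave 4 higher and 34 lower, beside 10.7% and 12.6% of all genes, with a median log2 fold change of -0.13. Without the 3 ribosomal RNA-rich libraries fewer of them were called, and fewer of all genes too. Atp6v1e1, a stalk subunit of the proton pump, had 90.5, 83.5 and 93.5 CPM in rIAPP, against 143, 107 and 138 CPM in WT (-0.56 ± 0.0871, edgeR adjusted p = 0.000194), and 7 of the 16 further pump genes were called lower. Asah1, acid ceramidase, had 133, 125 and 128 CPM in rIAPP, against 190, 173 and 198 CPM in WT (-0.55 ± 0.0709, edgeR adjusted p = 0.0000321). Ids, iduronate sulfatase, fell by 0.85, Sort1, the sorting receptor sortilin, by 0.55, Vps39, a tether of late endosomes and lysosomes, by 0.46, and Calcoco1, an autophagy receptor, by 0.94 on the log2 scale (edgeR adjusted p = 0.000108, 0.000127, 0.000242 and 0.000398). The 50 autophagy genes outside the members gave 0 higher and 10 lower. Ctsk, a collagen-degrading cathepsin, was among the higher genes, at 1.53 ± 0.303 (edgeR adjusted p = 0.00148).

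Between hIAPP and rIAPP 30 of the 143 were called higher and 0 lower, beside 7.71% and 5.28% of all genes, with a median log2 fold change of 0.12. Without the 3 ribosomal RNA-rich libraries 23 were called higher, among fewer genes called in all. The 30 were made up of 10 of 27 hydrolases, 5 of 16 pump genes, 5 of 19 membrane proteins and 4 of 11 proteases. The others were 4 of 50 autophagy genes and 2 of 20 regulators, shares near that of all genes. Man2b1, lysosomal alpha-mannosidase, had 69.1, 73.9 and 64.5 CPM in hIAPP, against 46.8, 46 and 46.5 CPM in rIAPP (0.57 ± 0.0742, edgeR adjusted p = 0.0000486). In hIAPP_hCAST against hIAPP 3 were called lower, beside 0.375% of all genes, Galns, Acp5 and Gpnmb, and none of these 3 was called without the 3 ribosomal RNA-rich libraries, or when hIAPP 1, hIAPP 2 or hIAPP 3 was left out (Gpnmb had 5.42, 4.28 and 1.73 CPM in hIAPP_hCAST, against 10.5, 18.2 and 11.3 CPM in hIAPP). In hIAPP_hCAST against hCAST 7 were called higher, beside 0.517% of all genes, with Lgmn at 70.1, 67.6 and 65 CPM in hIAPP_hCAST, against 46.1, 46.8 and 49.4 CPM in hCAST (0.51 ± 0.0702, edgeR adjusted p = 0.00169). Without the 3 ribosomal RNA-rich libraries 2 were called higher, among fewer genes called in all. In hCAST against WT and in the interaction 0 of the 143 were called.

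Some member counts could include reads of overlapping genes, since the strand setting of the counting was not given in the sources used here. In GENCODE M21, 34.4% of the exon bases of Ctsd lie in exons of Gm49369 on the same strand. Counting exons on either strand, the share was 43.9% for Becn1, 28.3% for Gabarapl1, 26.8% for Ctsl and 17.6% for Uvrag. It was 17.4% for Ctsa, 17.3% for Sqstm1 and 12.8% each for Ctsb and Hexa. On the same strand alone it was 6.09% for Ctsl and 0% for the other genes of that list. Ctsc, Ctsh, Psap, Lamp2 and Atp6v1a had a share of 0% on either strand. These shares are of exon bases and not of reads, and how far such reads enter the values of these genes was not tested.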

How the data were processed

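The values used were read counts per gene symbol, raw as deposited by the authors, in 15 libraries. Per the labels' protocols, total RNA came from the RNeasy Mini Kit, and library kits were NuGEN Ovation and TruSeq (Ribo-Zero). The submitters' processing notes name STAR, HTSeq and the builds GRCm38 and mm10, with versions not given in the sources used here. The authors' deposited FPKM, scaled to all reads including ribosomal RNA, served for levels between genes and as an alternative. Counts were fitted with edgeR 4.0.16 in R 4.3.3 (TMM, default filter, robust quasi-likelihood, 1 coefficient per group over 15 libraries), and p adjusted over 15460 genes. The standard error is the log2 fold change over the square root of F, and 95% intervals use the fit's degrees of freedom. Of the 24060 entries 2 repeat a symbol, and 0 columns were left unused. Libraries are numbered in accession order, which pairs nothing. Within groups, log-scale correlations were 0.979 to 0.997, and 0 libraries were identical. The members and lists were chosen with earlier results of these data known. Values by library are given for the 10 members with the smallest p in any of the 6 pairwise comparisons and the member of smallest p in each role, which adds Gusb, Uvrag and Tfe3. Psap was plotted outside that rule. Further pathway genes are named from the 3 called genes of smallest p in each list and comparison. Marker lists covered macrophages, lymphocytes, acinar, beta, alpha, duct, stromal and endothelial cells. Alternatives were DESeq2 1.42.0, voom in limma 3.58.1, RLE scaling, no filter, only the groups compared, log2(FPKM + 1) as deposited, FPKM rescaled outside ribosomal RNA-rich entries with pseudocounts of 1 and 0.1, libraries left out and hCAST in place of WT. The procedure was tested on simulated counts. Human transgene reads were not analysed here.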

Additional observations from a re-analysis of the deposited data

How the results depend on the processing

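Counts of called members changed by over 1.5 times under these alternatives. On log2(FPKM + 1) as deposited, whose scale includes ribosomal RNA reads and shifts the median of all genes by 1.26, 0.80, 1.26 and 0.40 in hIAPP vs WT, rIAPP vs WT, hCAST vs WT and hIAPP vs rIAPP, the members called were 34, 0, 36 and 0 in that order, among 12559, 820, 13135 and 316 genes in all. On that scale these members reversed in direction: Optn at 1.15 and Uvrag at 1.36 in hIAPP vs WT, and in rIAPP vs WT Ctsl at 0.91, Psap at 1.07, Lamp1 at 0.96, Lamp2 at 0.74, Atp6v1a at 0.79, Atp6ap1 at 1.13, Optn at 0.61, Ulk1 at 0.51 and Uvrag at 0.86. FPKM rescaled outside the ribosomal RNA-rich entries gave 6 in rIAPP vs WT with either pseudocount (2 higher and 4 lower, among 3167 and 3089 genes) and, with a pseudocount of 1, 1 in hIAPP_hCAST vs hCAST. Voom with sample weights gave 16 in rIAPP vs WT, 24 in hIAPP vs rIAPP and 2 in hIAPP_hCAST vs hCAST, among 4197, 3476 and 313 genes called in all, against 3599, 2009 and 116 by edgeR. DESeq2 gave 1 in hIAPP_hCAST vs hIAPP and 2 in hIAPP_hCAST vs hCAST, where no filter gave 1. Without the 3 ribosomal RNA-rich libraries hIAPP vs WT gave 2. Leaving out single libraries gave 0 to 2 in hIAPP_hCAST vs hIAPP and 0 to 3 in hIAPP_hCAST vs hCAST. The cause was not tested, save for the scale of the deposited FPKM. No paired analysis was possible because the titles of the groups share no replicate number. The lists without the 3 libraries were an alternative chosen after seeing the data. Depth limits WT 2 most, with 5 counts for Ctsh.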

Other observations

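Further marker lists gave these values. Lymphocyte markers, of which 9 were in the table and 2 were tested, summed to 24.9 to 26.1 CPM in hIAPP_hCAST, 12.8 to 16.1 CPM in hIAPP, 7.46 to 9.11 CPM in rIAPP, 8.25 to 14 CPM in hCAST and 9.72 to 14 CPM in WT. Duct markers, which include keratins, summed to 150 to 188 CPM in hIAPP_hCAST, 172 to 194 CPM in hIAPP, 171 to 191 CPM in rIAPP, 147 to 164 CPM in hCAST and 140 to 162 CPM in WT. Alpha-cell markers such as Gcg summed to 16500 to 17800 CPM in hIAPP_hCAST, 16100 to 16700 CPM in hIAPP, 16700 to 21000 CPM in rIAPP, 16300 to 17900 CPM in hCAST and 14300 to 16400 CPM in WT. Acinar markers, genes of digestive enzymes, summed to 6850 to 100000 CPM in hIAPP_hCAST, 44200 to 97500 CPM in hIAPP, 69700 to 97500 CPM in rIAPP, 31600 to 67200 CPM in hCAST and 11400 to 52400 CPM in WT.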
